A study of Saccharomyces cerevisiae with 9 samples.

Results

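The subject here is an evolved non-mutator strain of the budding yeast Saccharomyces cerevisiae, set against the ancestor it was derived from. Its members are the 3 arrays of a series of 9 whose labels name the evolved non-mutator as the tested RNA, and all 3 were used. On each of them RNA of the evolved non-mutator, sampled at 6700 generations, was labelled with Cy5 and RNA of the ancestral nonmutator strain with Cy3. The other 6 arrays compare an evolved mutator, line m8 at 6700 generations, with the ancestral mutator strain in the same dye arrangement, and the design names the non-mutator arrays as their control. All cultures were grown in 3 ml of the rich medium YPD to an OD600 of about 0.3. The labels name 1 evolved non-mutator strain, so n = 3 counts arrays of a single evolved line and not independently evolved lines. They do not say whether the arrays came from separate cultures, so the spread behind each p-value is that of these samples and may be technical. No mating type, ploidy or auxotrophic marker of the strain is given in the labels.

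Yeast cells that grow through many generations acquire mutations, and a microarray of the evolved strain against its ancestor shows which transcripts then stand at a different level under one growth condition. Several yeast pathways are controlled as units: the haploid mating type decides which pheromone and receptor genes are on, the phosphate regulon is switched on by Pho4 when phosphate is scarce, and the unfolded protein response raises the folding machinery of the endoplasmic reticulum. Genes of such a unit usually move together, so they are described in groups here.

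Values are log2 of the ratio of evolved over ancestor RNA, centred on the median of each array. A value of 1 is a doubling in the evolved strain and -1 a halving, relative to the median probe. Evolved over ancestor is the likely direction, as the labels put the evolved RNA in Cy5, but it is not stated with the values. Dyes were not swapped, so strain and dye cannot be told apart. In RNA of whole cultures, less RNA per cell and fewer cells with the RNA cannot be told apart either. A probe passed the test, and its gene is said to have risen or fallen, when limma's p, adjusted by Benjamini and Hochberg's method across every probe tested, was under 0.05.

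The non-mutator arrays were close to even: the median ratio was 1.01, 1.0 and 1.0 on arrays 2, 3 and 4, and the log2 ratios had an SD across probes of 0.275, 0.304 and 0.279. On the mutator arrays that SD was 0.848 to 1.0. Across probes, Pearson's r was 0.729 between arrays 2 and 3, 0.739 between 2 and 4, and 0.881 between 3 and 4, so array 2 stood somewhat apart. A set of 248 probes had a ratio within 0.002 of 1 shared value on each array (1.02 on array 2, 0.967 on array 3 and 0.992 on array 4). On single arrays 334 to 371 probes lay that close to the shared value, against 64 to 79 in windows of the same width placed 0.01 to either side. These 248 probes cover 170 reference genes, among them 45 of 138 cytosolic ribosomal protein genes and 14 of 29 genes of glycolysis and fermentation, and their mean log2 ratios all lay between -0.022 and -0.021. No difference of a single gene can be read from them, and the cause of the shared value was not tested. Without them 2445 probes passed.

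Of 6925 probes tested, 2481 passed, which is 35.8%. Of these 1250 were higher in the evolved strain (18.1%) and 1231 lower (17.8%), and each of the 2481 had 1 sign on every array. Most differences were small: 359 probes (5.18%) also reached a log2 size of 0.5, which is 1.41-fold, 170 of them higher (2.45%) and 189 lower (2.73%). At 2-fold or more 16 were higher and 38 lower. The median over all tested probes was -0.0041. The count changed with the arrays used: without array 3 it was 1055, without array 4 it was 1260, and without array 2 it was 3266. The means ran from -2.81, for the a-factor gene MFA1, to 2.18, for the enolase-related gene ERR1.

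The a-specific list, most of whose genes are particular to cells of mating type a, had the lowest median of the 49 lists. All 7 genes of the list fell (against 17.8% of all probes lower), with a list median of -2.07, and 5 of them were among the 15 lowest genes. MFA1, one of the genes for the a-factor pheromone, was at -2.91, -2.74 and -2.77 on arrays 2, 3 and 4, a mean of -2.81 ± 0.09 (SD, n = 3) or 7.01-fold lower (adjusted p = 0.00011). MFA2, the other a-factor gene, was at -2.53, -2.31 and -2.33, 5.25-fold lower (adjusted p = 0.00011). For both genes the arrays lay close together and far below 0.

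The receptor gene of a cells, STE2, whose protein binds the alpha-factor of the partner, was at -2.03, -2.16 and -2.01, 4.19-fold lower (adjusted p = 0.00011). STE6, which encodes the transporter that exports a-factor, was at -1.69, -1.68 and -1.59, 3.15-fold lower (adjusted p = 0.00011). BAR1, which encodes the secreted protease that degrades alpha-factor, was at -1.92, -2.92 and -2.62, a mean of -2.49 ± 0.51 (adjusted p = 0.0013). Array 2 was the least negative for BAR1, and all 3 arrays were far below 0 for it. AGA2, the adhesion subunit of a-agglutinin, was at -1.06, -1.13 and -1.27 (adjusted p = 0.0004). AXL1, a protease that helps to process a-factor, is also on the haploid-specific list and so is not particular to a cells. It changed least of the 7, at -0.25, -0.19 and -0.33 (adjusted p = 0.012). Without array 4 it no longer passed (adjusted p = 0.079).

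**Figure D1:**
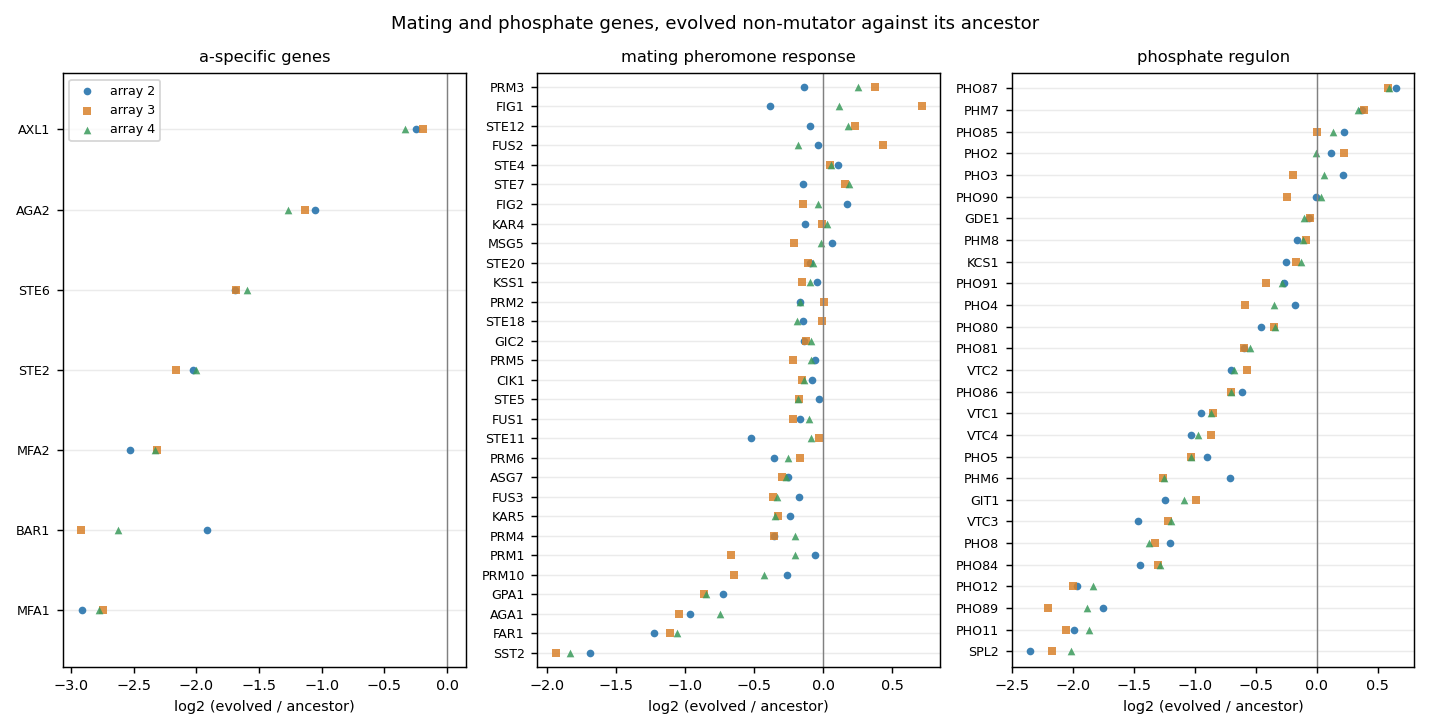
Log2 ratio of evolved over ancestor (horizontal axis) for every tested gene of 3 lists, a-specific genes, mating pheromone response and phosphate regulon, with 1 point per non-mutator array. All 7 genes of the a-specific list lie left of 0 on every array, 4 pheromone response genes (SST2, FAR1, AGA1 and GPA1) lie lowest in their list, and 19 of 27 phosphate genes fell.

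The genes of the pheromone response list moved less uniformly. Of 30 tested, 11 fell and 0 rose (36.7% lower, against 17.8% of all probes), with a median of -0.13. SST2, which encodes the protein that turns off the receptor's G protein, was at -1.69, -1.94 and -1.83 (mean -1.82 ± 0.12, adjusted p = 0.00023). FAR1, the inhibitor that arrests the cell cycle on pheromone, was at -1.22, -1.11 and -1.06, 2.19-fold lower. GPA1, the G protein alpha subunit, was at -0.73, -0.86 and -0.85. AGA1, the anchor subunit of a-agglutinin, was at -0.96, -1.04 and -0.75. Those 4 stood lowest on every array, while the other 7 that fell did so by less: PRM10, PRM4, KAR5, FUS3, ASG7, PRM6 and FUS1 had means of -0.45 to -0.16. Of 11 haploid-specific genes, 4 fell (36.4%, against 17.8% of all probes), namely FAR1, GPA1, the MAP kinase gene FUS3 (-0.29) and AXL1. STE4 and STE18, the beta and gamma subunits that work with GPA1, had values of 0.07 and -0.11 and did not pass.

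The alpha-specific genes showed no matching increase as a list: of 8 tested, 1 rose (12.5%, against 18.1% of all probes) and 3 fell (37.5%, against 17.8%). The alpha-factor gene MF(ALPHA)1 was at 0.06, 0.30 and 0.38 (adjusted p = 0.047), and lost its call without array 3 or array 4 (adjusted p = 0.18 each). STE3, the receptor gene of alpha cells, was at 0.39, 0.14 and 0.02 and did not pass. SAG1, the alpha-agglutinin gene, fell, at -0.36, -0.64 and -0.49 (adjusted p = 0.005). The regulator genes MATALPHA2 (-0.24) and HMLALPHA2 (-0.26) fell, and MATALPHA1 (-0.17) and HMLALPHA1 (-0.12) did not pass. The copies at the mating type locus and the silent cassette are near-identical, so their probes cannot be read separately. MF(ALPHA)2, the second alpha-factor gene, was at 0.14, -0.38 and -0.25 and passed only without array 2 (-0.32, adjusted p = 0.00033). AFB1, chosen after its values were seen, encodes a blocker of a-factor and was at -0.81, -0.92 and -0.64 (adjusted p = 0.0014).

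The phosphate regulon was the other list with a large common decrease. Of 27 genes tested, 19 fell and 2 rose (70.4% lower, against 17.8% of all probes), and 15 fell by at least 0.5 (2.73% of all probes). The median was -0.65, at -0.62, -0.59 and -0.68 on arrays 2, 3 and 4. SPL2, which restrains low-affinity phosphate uptake, was at -2.35, -2.17 and -2.02, 4.53-fold lower (adjusted p = 0.00023). PHO89, a sodium-coupled phosphate transporter gene, was at -1.76, -2.21 and -1.89, 3.86-fold lower (adjusted p = 0.0004). PHO84, the main high-affinity transporter gene, was at -1.45, -1.30 and -1.29, 2.54-fold lower (adjusted p = 0.00033). All arrays stood well below 0 for each of these genes.

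The secreted acid phosphatase genes PHO11 and PHO12 had means of -1.97 ± 0.09 and -1.93 ± 0.08, but they are near-identical and cannot be read separately. PHO5, the main acid phosphatase of this kind, was at -0.99 ± 0.08, and PHO8, the vacuolar alkaline phosphatase, at -1.30 ± 0.09. The 4 VTC genes of the list, whose products make polyphosphate in the vacuole, all fell: VTC3 to -1.30, VTC4 to -0.96, VTC1 to -0.89 and VTC2 to -0.65. GIT1, which takes up glycerophosphoinositol, was at -1.11 ± 0.13. PHM6 was at -1.08 ± 0.31, with array 2 the least negative (-0.71, against -1.26 and -1.25 on arrays 3 and 4).

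Of the regulators of the pathway, 3 fell. PHO81, the inhibitor of the Pho80 and Pho85 kinase, was at -0.58 ± 0.03, PHO80, the cyclin, at -0.38 ± 0.06, and PHO4, the activator, at -0.37 ± 0.20. PHO85, the kinase, and PHO2, the second activator, did not pass. PHO87, a low-affinity transporter gene, rose, at 0.65, 0.58 and 0.59 (adjusted p = 0.00091), as did PHM7 (0.37). PHO90, the other low-affinity transporter of this pair, did not pass. The list thus held calls on both sides of 0.

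FET3 had the second lowest mean of all reference genes. It encodes the multicopper oxidase that takes up iron together with the permease Ftr1, and it was at -2.76, -3.02 and -2.57, a mean of -2.78 ± 0.22 or 6.89-fold lower (adjusted p = 0.00023). The iron regulon, which the activator Aft1 turns on in low iron, had 16 of 30 genes lower and 1 higher (53.3% lower, against 17.8% of all probes), with a median of -0.21. Beyond FET3 the decreases were smaller: ENB1, the enterobactin transporter, was at -0.66, -0.69 and -0.64, FTR1 at -0.44, -0.42 and -0.51, and the siderophore transporter SIT1 at -0.31, -0.35 and -0.42. Every one of these arrays was below 0, and FET3 stood well below the other members. The ferric reductase gene FRE4 rose (0.23). Of 19 copper and zinc genes, 6 fell (31.6%, against 17.8% of all probes) and 1 rose. COT1 (-0.51) had the smallest p among those that fell, and ADH4 (-0.46) fell too. The zinc activator ZAP1 (-0.38) and its target transporter genes ZRT1 (-0.29) and ZRT2 (-0.30) also fell. Of 19 cation and membrane transport genes, 9 fell (47.4%, against 17.8%) and 1, HSP30, rose (0.51). The sodium pump genes ENA2 (-0.74) and ENA1 (-0.67), which are near-identical copies, and the magnesium transporter gene ALR1 (-0.69) had the smallest p among those that fell.

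Amino acid synthesis was lower over a broad front, by small amounts. Of 63 genes, 31 fell and 1 rose (49.2% lower, against 17.8% of all probes), with a median of -0.16. Of those that fell, 7 did so by at least 0.5 (2.73% of all probes). Without array 3 the number that fell was 18, without array 4 it was 19, and without array 2 it was 34. SER3, the first enzyme of serine synthesis, was at -1.13, -1.20 and -1.36, 2.34-fold lower (adjusted p = 0.00038). ARO9, an aromatic aminotransferase on this list that also serves breakdown, was at -1.15, -1.10 and -1.13, 2.18-fold lower (adjusted p = 0.00025). ARO10, the decarboxylase that follows it in the breakdown of aromatic amino acids, was at -1.27 ± 0.04 (chosen after its values were seen).

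The branch that makes leucine, isoleucine and valine held several of the larger decreases. LEU1, the isopropylmalate isomerase gene, was at -0.97, -0.95 and -0.96, 1.95-fold lower (adjusted p = 0.00035). LEU2, the next enzyme of the leucine branch, was at -0.78, -0.96 and -0.86 (adjusted p = 0.0006). ILV3 was at -0.65 ± 0.07 and the aminotransferase gene BAT1 at -0.54 ± 0.03. OAC1, a mitochondrial carrier that exports the leucine precursor, was at -0.79 ± 0.04 (chosen after its values were seen). LEU1 and LEU2 lay at -0.78 or lower on each array. The lysine genes LYS9 (-0.45), LYS1 (-0.38) and LYS12 (-0.34) and the threonine and methionine branch genes HOM2 (-0.39) and HOM6 (-0.33) fell as well. ARG4, of arginine synthesis, rose (0.23).

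Auxotrophic marker genes, which laboratory strains often lack or carry as selectable markers, did not move as 1 group. HIS3, of histidine synthesis, had the second highest mean of all reference genes, at 1.99, 1.97 and 2.07, which is 4.02-fold higher (adjusted p = 0.00011). Its neighbours on chromosome XV stood elsewhere, with MRM1 at -0.03 (adjusted p = 0.61) and DED1 at -0.32 (adjusted p = 0.0039). ADE2, of adenine synthesis, rose to 0.50, 0.53 and 0.35 (adjusted p = 0.0033). MET17 (0.17) rose, and LEU2, LYS2 (-0.21) and TRP1 (-0.20) fell. The calls of MET17, LYS2 and TRP1 were lost without array 3 or array 4 (adjusted p between 0.057 and 0.13). URA3, at -0.17, 0.03 and 0.03, and CAN1 and LYS5 did not pass, with adjusted p of 0.63, 0.88 and 0.99.

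Genes of cofactor supply included several single large decreases. NRT1, the nicotinamide riboside transporter gene, was at -1.36, -1.39 and -1.29, 2.54-fold lower (adjusted p = 0.00023). BNA5 and BNA1, enzymes that make NAD from tryptophan, were at -1.11 ± 0.10 and -0.88 ± 0.12, and TNA1, the nicotinic acid transporter gene, at -0.53 ± 0.10. BNA2, the first enzyme of the same route, rose (0.45, 0.41 and 0.36, adjusted p = 0.0026). In all 7 of 16 genes of this list fell (43.8%, against 17.8% of all probes) and 1 rose. Of 24 thiamine and pyridoxine genes, 11 fell (45.8%, against 17.8%) and 3 rose, which at 12.5% is below the 18.1% of all probes. The thiamine precursor genes THI13 (-0.74) and THI5 (-0.41), copies of 1 family, fell. SNZ2 (0.50), SNO2 (0.45) and SNO3 (0.46), the vitamin B6 genes that also exist in near-identical copies, rose. Of 25 purine and one-carbon genes, 11 fell (44%, against 17.8%) and 2 rose, led by the glycine cleavage genes GCV1 (-0.73 ± 0.01) and GCV2 (-0.64 ± 0.09). ALD6, a cytosolic aldehyde dehydrogenase that makes acetate, was at -1.33, -0.88 and -0.93, and PYC1, a pyruvate carboxylase gene, at -0.87, -1.0 and -0.89.

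Among the genes that rose, the folding and quality control machinery of the endoplasmic reticulum had the highest list median over the means of the arrays. The seripauperin and COS list, described further on, had the higher median on arrays 3 and 4, so the rank of these 2 lists rests on array 2. Of 19 genes of the endoplasmic reticulum list, 14 rose and 1 fell (73.7% higher, against 18.1% of all probes). Of those that rose, 9 did so by at least 0.5 (2.45% of all probes). The median was 0.38, with array medians of 0.57, 0.36 and 0.31. ERO1, the oxidase that drives disulfide formation, was at 0.93, 1.15 and 1.09, 2.08-fold higher (adjusted p = 0.00052). DER1, a component of the degradation channel for misfolded proteins, was at 0.97, 1.13 and 1.02, 2.06-fold higher (adjusted p = 0.00038). SIL1, an exchange factor of the Hsp70 Kar2, was at 0.96, 0.99 and 0.89, 1.93-fold higher (adjusted p = 0.00038). In all 3 genes every array stood near 1.

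Other chaperone partners rose as well: the Hsp70 LHS1 (0.85 ± 0.12), the J proteins JEM1 (0.84 ± 0.14) and SCJ1 (0.58 ± 0.05), the disulfide isomerases MPD1 (0.76 ± 0.13) and EUG1 (0.74 ± 0.04) and the prolyl isomerase FPR2 (0.67 ± 0.09). KAR2 itself, the central Hsp70 of the compartment, rose less, at 0.57, 0.26 and 0.30 (adjusted p = 0.015), and array 2 was the highest for it. PDI1, the main disulfide isomerase, rose to 0.24 ± 0.07. The sensor gene of the unfolded protein response, IRE1, fell (-0.12, -0.34 and -0.21, adjusted p = 0.031). HAC1, whose spliced mRNA encodes the activator of the response, was at -0.10 and did not pass. Splicing of that mRNA was not analysed here. Among the highest genes outside the list were EMP46, a cargo receptor between the endoplasmic reticulum and the Golgi (0.93, 1.05 and 0.94), YET2, a membrane protein of the compartment (0.92, 0.99 and 1.03), MCD4, which adds phosphoethanolamine to glycolipid anchors (0.81, 1.03 and 1.02), and GTT1, a glutathione transferase bound to the same membrane (1.08, 1.06 and 0.98). Every array was well above 0 for each of them.

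**Figure D2:**
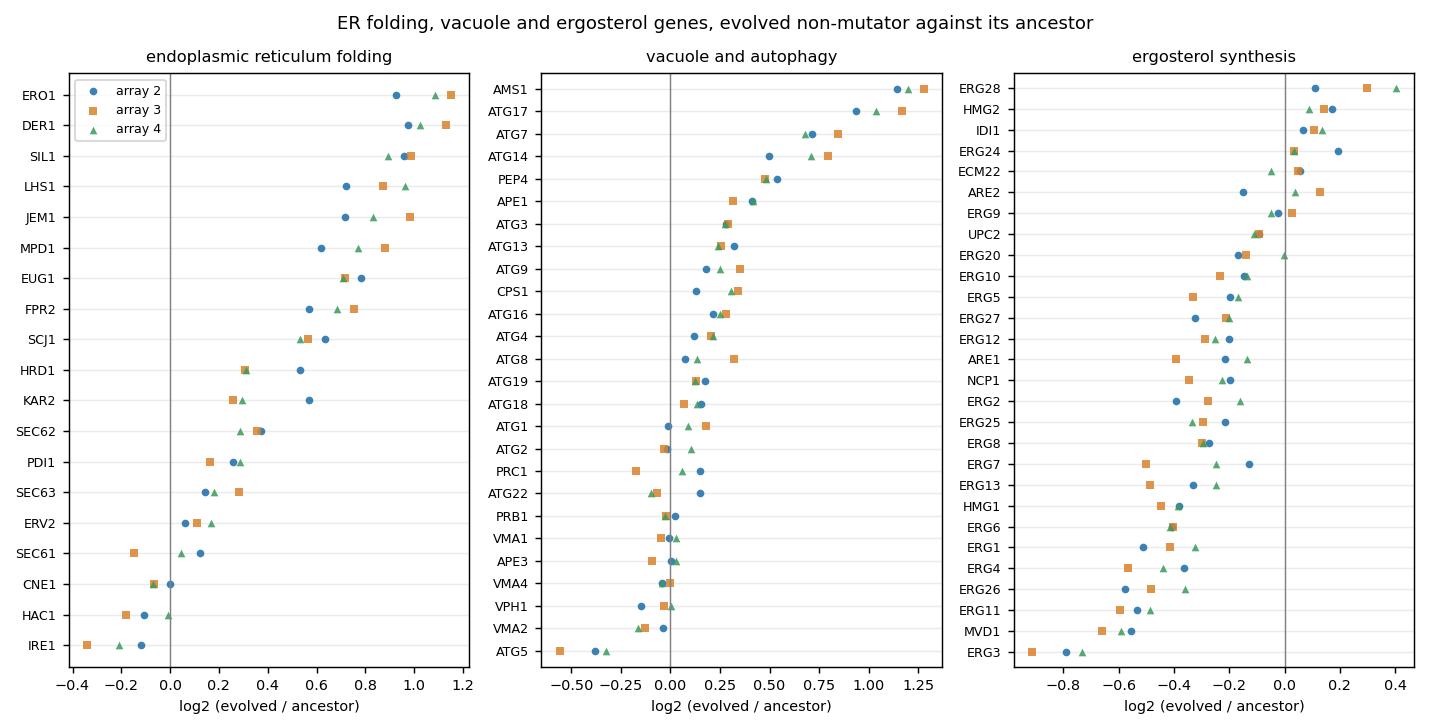
Log2 ratio of evolved over ancestor (horizontal axis) for every tested gene of 3 lists, endoplasmic reticulum folding, vacuole and autophagy, and ergosterol synthesis, with 1 point per non-mutator array. In the first 14 of 19 genes rose, in the second 13 of 26 rose, and in the third 19 of 28 fell.

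Vacuolar and autophagy genes rose in part. Of 26, 13 rose and 1 fell (50% higher, against 18.1% of all probes), 4 by at least 0.5 (2.45% of all probes), with a median of 0.16, and without array 3 or array 4 the number that rose was 8. AMS1, the vacuolar alpha-mannosidase that reaches the vacuole by the autophagy machinery, was at 1.14, 1.28 and 1.20, 2.31-fold higher (adjusted p = 0.00033). ATG17, the scaffold that starts the autophagosome, was at 0.94, 1.17 and 1.04, 2.07-fold higher (adjusted p = 0.00053). ATG7, the activating enzyme of both ubiquitin-like conjugations, was at 0.71, 0.84 and 0.68. For all 3 genes every array was well above 0. ATG14 (0.67 ± 0.15), the vacuolar protease PEP4 (0.50 ± 0.03) and aminopeptidase APE1 (0.38 ± 0.06) rose too, and PBI2, an inhibitor of vacuolar protease B, was at 0.89, 1.07 and 1.04. ATG5 fell (-0.42 ± 0.12), and the vacuolar ATPase genes VMA1, VMA2, VMA4 and VPH1 did not pass.

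Ergosterol synthesis, the route to the yeast membrane sterol, was lower at most steps. Of 28 genes, 19 fell and 1 rose (67.9% lower, against 17.8% of all probes), with a median of -0.25. Of those that fell, 3 did so by at least 0.5 (2.73% of all probes). Without array 3 the number that fell was 10. ERG3, a desaturase late in the route, was at -0.79, -0.91 and -0.73, 1.76-fold lower (adjusted p = 0.00076). MVD1, which makes isopentenyl diphosphate, was at -0.56, -0.66 and -0.59, and ERG11, the demethylase that azole drugs inhibit, at -0.53, -0.60 and -0.49. HMG1, one of the genes for the rate-limiting reductase, fell to -0.40 ± 0.04. ERG28, a scaffold of the demethylation complex, rose (0.27 ± 0.15), and the sterol regulators UPC2 and ECM22 did not pass. Of 25 phospholipid and fatty acid genes, 12 fell (48%, against 17.8%) and 3 rose (12%, against 18.1%), none by 0.5 or more in either direction.

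The seripauperin and COS list also holds DAN and TIR genes, and its families of cell wall and membrane proteins lie mostly near chromosome ends. It had 32 of 40 members higher and 4 lower (80% higher, against 18.1% of all probes). The list median was 0.36, with array medians of 0.38, 0.39 and 0.35. Genes near ends passed more often in both directions: of all 320 tested within 10 genes of a chromosome end, 85 rose and 109 fell. Without this list 58 of 290 near ends rose and 108 fell. Of 5487 genes farther in, 976 rose and 972 fell. COS1 was highest, at 0.96, 0.95 and 0.91 (adjusted p = 0.00036), and the others that rose lay between 0.17 and 0.56. Within a family many members are near-identical in sequence, so the count does not represent independent genes. ERR1, an enolase-related gene next to PAU21 at an end of chromosome XV, was at 2.23, 2.09 and 2.22, 4.54-fold higher (adjusted p = 0.00011). Its close relatives ERR2, at 0.12, 0.78 and 0.77, and ERR3, at 0.06, 0.50 and 0.53, also rose (both chosen after their values were seen), and array 2 was lowest for both. The copies share most of their sequence, so these 3 probes may not be separate readings. The yapsin protease genes YPS5 (1.05, 1.26 and 1.04) and YPS6 (1.12, 1.10 and 1.01) were among the highest, as were YGL258W-A (1.40, 1.38 and 1.31) and ULI1 (1.07, 1.17 and 1.02), genes with no role given here.

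Of 48 cell wall genes, 18 fell (37.5%, against 17.8% of all probes) and 10 rose, which at 20.8% is near the 18.1% of all probes. The daughter-cell separation genes DSE4 (-0.54) and DSE1 (-0.51) and the glucanase SCW10 (-0.51) fell, while the wall proteins PIR3 (0.78) and TIR1 (0.42) rose. NFG1, a regulator of filamentous growth, was at -1.17, -1.53 and -1.34 (adjusted p = 0.00058). Of 32 genes of nitrogen use, 10 fell (31.2%, against 17.8%) and 6 rose, which at 18.8% is near the share of all probes. The branched-chain amino acid permease gene BAP2 (-0.69) and the dicarboxylic amino acid permease gene DIP5 (-0.40) fell. The allantoin genes DAL4 (0.94 ± 0.11) and DAL1 (0.59 ± 0.07) and the GABA catabolic gene UGA2 (0.76 ± 0.08) rose. Of 36 proteasome genes, 15 fell and 0 rose (41.7% lower, against 17.8%), with a median of -0.13 and SEM1 (-0.36) and PRE9 (-0.30) among them.

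**Figure D3:**
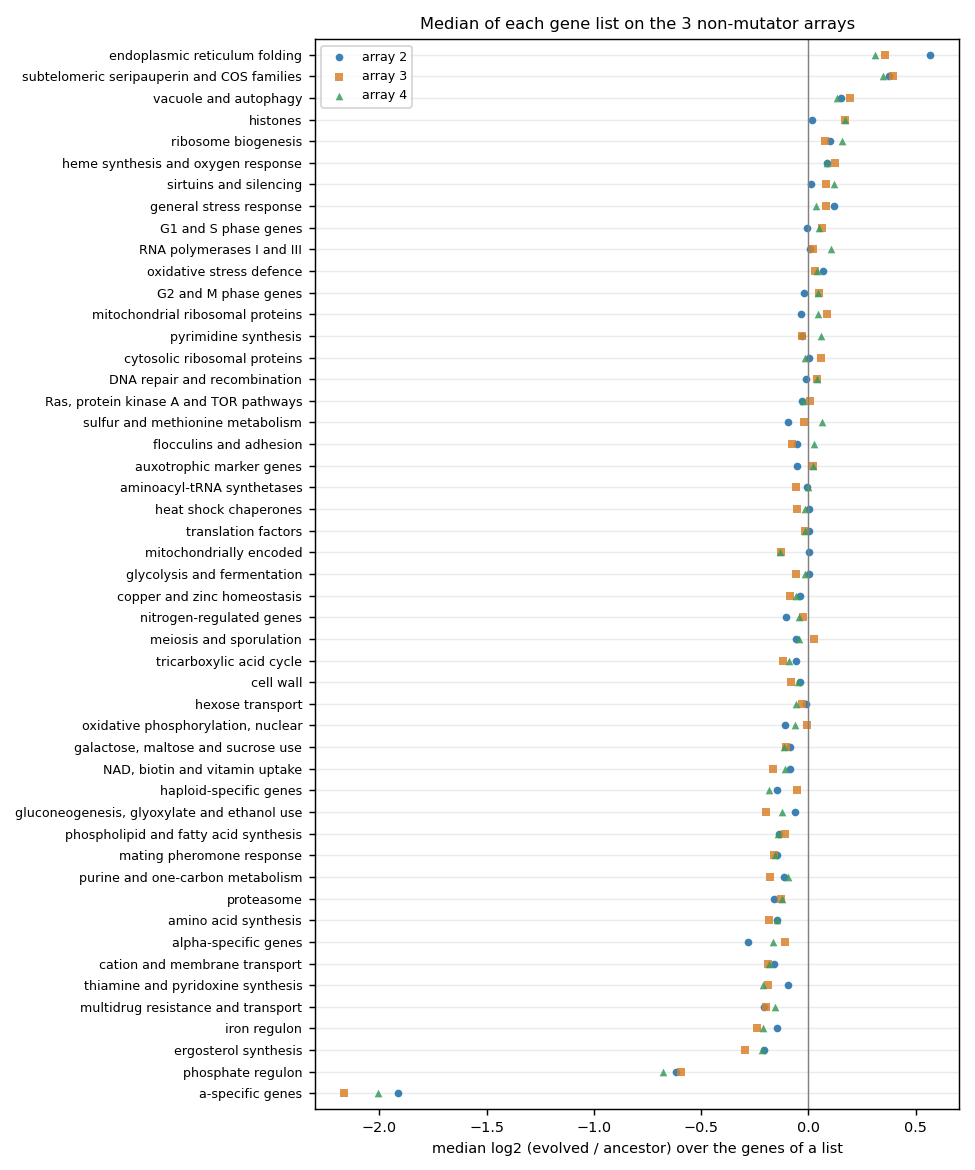
Median log2 ratio of evolved over ancestor over the genes of each of 49 lists (horizontal axis), with 1 point per non-mutator array. The a-specific list (-2.07 over the means) and the phosphate regulon (-0.65) lie lowest, the endoplasmic reticulum list (0.38) and the seripauperin and COS families (0.36) highest, and 26 of the 49 medians over the means are within 0.1 of 0.

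The medians of the growth and stress lists were small. Ribosome biogenesis had 32 of 109 genes higher (29.4%, against 18.1% of all probes) and 5 lower (4.59%, against 17.8%), with a median of 0.11, led by EBP2 (0.49) and RPF2 (0.33). Cytosolic ribosomal proteins had 13 of 138 genes higher and 0 lower (9.42% against 35.8% of all probes in either direction). The median was 0.02, or 0.07 without the 45 at the shared ratio. Because 0 of the 248 probes at that ratio passed, the 13 came from the other 93 genes, and the 45 lower the share. With those 248 left out, 36.6% of all probes passed. Translation factors had 1 of 42 higher and 1 lower, and aminoacyl-tRNA synthetases 0 of 19 higher and 2 lower (4.76% and 10.5% in either direction). The share of translation factors is lowered in the same way by 8 genes at the shared ratio. In the general stress response 17 of 53 rose (32.1%, against 18.1% of all probes) and 5 fell (9.43%, against 17.8%), with a median of 0.07. Glycogen phosphorylase GPH1 was at 0.59, 0.87 and 0.71 and the membrane stress protein HSP30 at 0.49, 0.49 and 0.55, while the aldehyde dehydrogenase gene ALD3 was at -0.54, -0.43 and -0.52. Nuclear oxidative phosphorylation genes had 2 of 37 higher and 5 lower (18.9% in either direction, against 35.8% of all probes).

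DNA repair and recombination, the functions nearest to the mutation rate that the series is about, had 7 of 44 genes higher and 10 lower (38.6% in either direction against 35.8% of all probes), with a median of 0.0081. The helicase gene SGS1 was at -0.53, -0.36 and -0.31 and the alkyladenine glycosylase gene MAG1 at -0.33, -0.24 and -0.26. The nucleotide excision gene RAD7 was at 0.35, 0.27 and 0.25 and the photolyase gene PHR1 at 0.26, 0.23 and 0.20. Each of the 4 kept 1 sign on all arrays, as did all 2481 probes that passed. Among silencing genes the histone deacetylase SIR2 rose (0.58, 0.52 and 0.72, adjusted p = 0.0018), with 4 of 14 higher (28.6%, against 18.1% of all probes) and 1 lower.

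By chromosome the evolved strain was even. The medians of the 16 nuclear chromosomes ran from -0.021 to 0.015, and between -0.053 and 0.028 on single arrays, and 33.2% to 42.9% of the genes of a chromosome passed. Position along a chromosome did go with the share of calls. Of the 320 tested genes within 10 genes of an end, 194 passed (60.6%) and 15.9% passed with a size of at least 0.5, against 1948 of 5487 farther in (35.5%, and 4.17% by size). The median size of the difference was 0.23 (log2) near ends and 0.12 farther in. Without the seripauperin and COS list the share near ends was 57.2% (166 of 290). In the 5 genes nearest an end 73.8% passed, in positions 6 to 10 it was 47.5%, and from position 21 inward 31.6% to 36.1%. Part of these genes belongs to families of near-identical copies, and their share in the difference beyond the list left out was not tested.

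**Figure D4:**
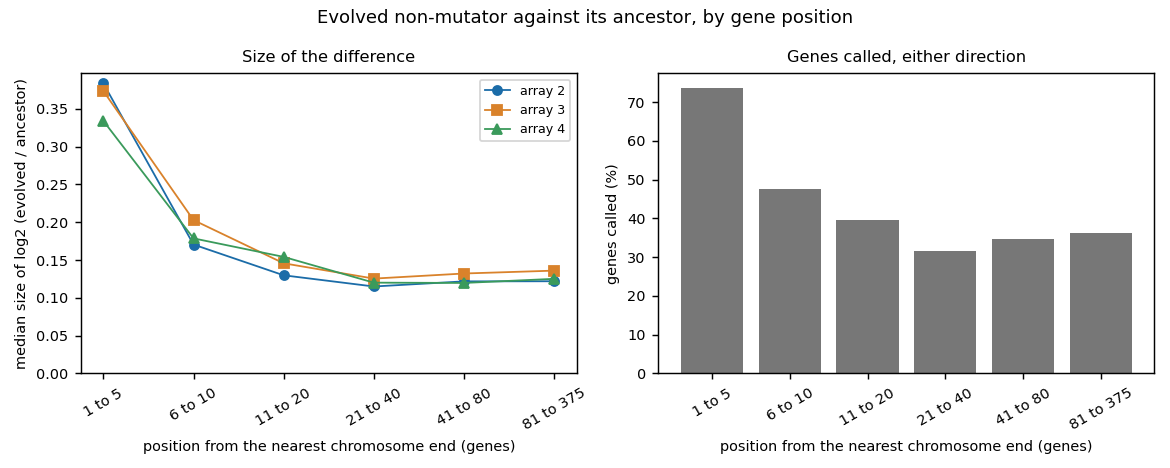
Left, median size of the log2 ratio of evolved over ancestor against the position of a gene from the nearest chromosome end, counted in tested genes, with 1 line per non-mutator array. Right, percent of genes that passed in either direction, which is 73.8% in the 5 genes nearest an end and 36.1% in the genes farthest in.

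Some neighbouring genes passed in the same direction. There were 8 runs of at least 5 adjacent genes of this kind, and 5 of them reached the last 10 genes of a chromosome. With 18.1% of all probes higher and 17.8% lower, some runs can arise from the share of calls alone, and how many was not tested. Not all were large: on chromosome IV 5 genes from RCR2 to TRP1 had means of -0.22 to -0.15. On chromosome II 9 neighbours fell, from CTP1 to MAL32, and the run includes the sulfate transporter gene SUL1 (-0.65), PHO89 and the maltose genes MAL33, MAL31 (-0.51) and MAL32. On chromosome XVI 6 fell, comprising the arsenic resistance genes ARR1, ARR2 and ARR3 and the open reading frames YPR202W, YPR203W and YPR204W. ARR3, the arsenite exporter, was at -1.67, -1.42 and -1.44 (adjusted p = 0.00037). On chromosome IX 6 rose, with the peroxidase gene HYR1 (0.81), GTT1, YPS6 and PAU15 among them. On chromosome XI 5 rose away from the ends, from MCD4 through PIR1 and PIR3 to KDX1. Shared regulation, copy number and cross-hybridisation were not tested for these runs.

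The evolved mutator line m8 gives the values of the same genes in the other evolved strain of the series. Across probes, r between single non-mutator and mutator arrays was -0.032 to 0.057. The difference of the means (non-mutator minus mutator) passed for 4390 of 6866 probes, or 63.9% (30.9% higher in the non-mutator and 33.0% lower). By their means, of the 15 highest genes of the non-mutator 1 had the same sign in the mutator, YPS5, and of the 15 lowest 14 did. Of the 14, NFG1 (0.92, -2.36 and -1.35) and NRT1 (0.01, -0.45 and -0.49) differed in sign between mutator replicates. Of 2478 probes that passed in the non-mutator and had a mutator value, 1222 had the same sign. The counts of the highest and lowest genes describe 30 chosen genes and were not tested. MFA1, MFA2, STE2, BAR1, STE6 and SST2 were below 0 on every array set: STE2 was at -2.07 ± 0.09 in the non-mutator and at -1.06 ± 0.04 in the mutator (difference -1.01, adjusted p = 4.7e-05), and MFA1 at -2.81 ± 0.09 in the non-mutator and at -4.0 ± 0.34 in the mutator (difference 1.19, adjusted p = 0.0012). The difference did not pass for MFA2 (-0.28), BAR1 (0.64) and SST2 (-0.16), though BAR1 did without non-mutator array 3 (0.85, adjusted p = 0.037).

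FET3 was the exception among the lowest genes, at -2.78 ± 0.22 in the non-mutator and 0.61 ± 0.07 in the mutator (difference -3.39, adjusted p = 5.9e-06). HIS3 was at 2.01 ± 0.05 in the non-mutator and -4.87 ± 0.06 in the mutator, and LEU1 at -0.96 ± 0.01 in the non-mutator and 3.11 ± 0.04 in the mutator. Of the phosphate genes, the difference did not pass for SPL2 and PHO89, while PHO84 was at -1.35 ± 0.09 in the non-mutator and -2.39 ± 0.15 in the mutator (difference 1.04). The general stress list, with a median of 0.07 in the non-mutator and -2.55 in the mutator, had 47 of 53 genes higher in the non-mutator by that test (against 30.9% of all probes). Ribosome biogenesis, with a median of 0.11 in the non-mutator and 1.44 in the mutator, had 105 of 109 lower (against 33.0% of all probes). The endoplasmic reticulum list had a median of 0.38 in the non-mutator and -0.16 in the mutator. By the same test 14 of its 19 genes were higher in the non-mutator (against 30.9% of all probes) and 1 lower (against 33.0%). Each evolved line was set against its own ancestor, so a difference in the ancestors enters these values and cannot be told apart from one in the evolved strains.

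**Figure D5:**
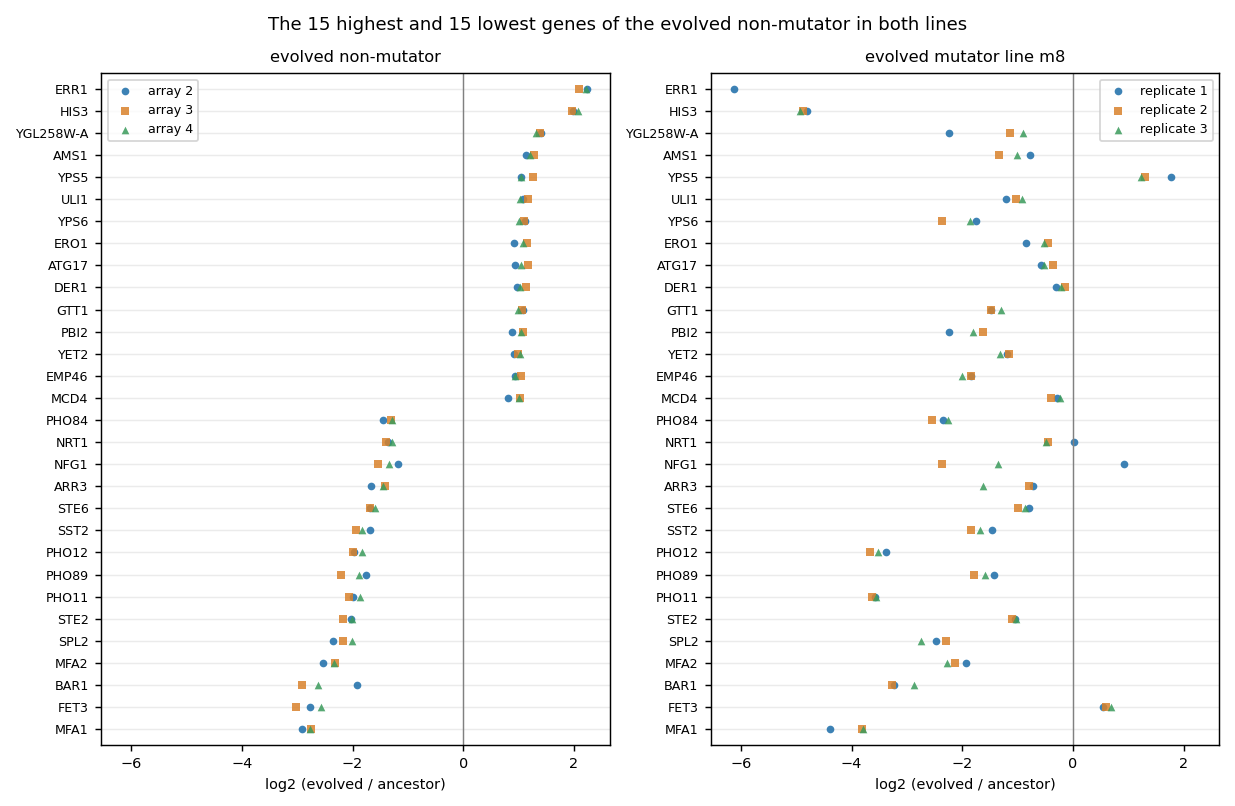
Log2 ratio of evolved over ancestor (horizontal axis) for the 15 highest and 15 lowest reference genes of the evolved non-mutator, with 1 point per array in the non-mutator (left) and 1 point per replicate, the mean of up to 2 arrays, in mutator line m8 (right). By their means, YPS5 alone of the 15 highest genes is right of 0 in both lines and FET3 alone of the 15 lowest changes side. ERR1 has a value in 1 mutator replicate.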

How the data were processed

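Total RNA had been extracted with Qiagen RNeasy kits, per the labels' protocols. The deposited values are linear ratios, 1 per probe and array, with the evolved strain in Cy5 and its ancestor in Cy3 per the labels. The sources used here do not give the software, background correction, scaling within arrays or spot intensities. Non-mutator arrays are numbered 2, 3 and 4 by their titles, and their descriptions carry other numbers.

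Ratios at the floor of 0.01 (tolerance 1e-04, 2 to 4 per array) were set to missing, and log2 ratios were centred on each array's median. Of 6947 probes, 6377 carry a systematic gene name and 5840 matched the R64 RefSeq table, used for symbols and gene order only. Probes with values on at least 2 of the 3 arrays were tested (6925), of which 10 rest on 2 arrays. The mean was tested against 0, two-sided, with lmFit and eBayes of limma 3.58.1, under R 4.3.3, on the non-mutator arrays alone, because mutator replicates average 2 arrays and spread wider. Adjusted p is Benjamini-Hochberg over all probes tested, and 3290 probes had an unadjusted p under 0.05. The difference (non-mutator minus mutator) came from a joint fit with 3 mutator replicates, each the mean of 2 arrays of 1 evolved RNA number (6866 probes). By the titles, the 2 arrays of mutator replicate 2 carry different ancestor numbers, 2 and then 1. Replicates 1 and 2 may thus share an ancestor RNA. Replicate numbers did not pair the 2 sets: deviations of same-numbered replicates had r = -0.036 and 0.017 across probes.

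The comparison and the 49 gene lists were chosen with earlier results of these data known. Named were the 15 highest and 15 lowest reference genes that passed with 1 sign on every array, up to 5 members of smallest p per list, and all marker, a-specific and alpha-specific genes. Further members are named to describe a list. MEL1, MOX2 and MATA1 matched no gene. Lists are described by counts and medians, with no test of a list. The number of arrays limits the precision. Alternatives changed centring, scale, samples in the fit, the model of the spread, filters, thresholds and arrays used, and 1, leaving out probes at the shared ratio, was added after seeing the data. Promoter sequences were not analysed here. Python 3.11.15 and matplotlib 3.10.9 drew the figures.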

Additional observations from a re-analysis of the deposited data

Results flagged for a closer look

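Of 48 genes examined between the evolved lines, 41 had passed in the non-mutator. For 27 of these the difference of evolved over ancestor, non-mutator minus mutator line m8, passed as well (joint limma fit, highest adjusted p = 0.0147), and 16 had opposite signs in the lines. They are listed because of that difference, but it passed for 4390 of all 6866 probes (63.9%), a share close to theirs. ERR1 and MF(ALPHA)1, among the 41, had a value in 1 mutator replicate only, so the difference was not tested for them. Opposite signs were common too. Of 2478 probes that passed in the non-mutator and had a mutator value, 1222 had the same sign in both lines. Each line was set against its own ancestor, and the array sets differ in spread, floor values and hybridisation rounds, whose part in these differences was not tested.

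Among genes that were high in the non-mutator, the difference (log2) was 6.88 for HIS3, 2.79 for YGL258W-A, 2.25 for AMS1, 2.14 for ULI1, 3.06 for YPS6, 1.66 for ERO1 and 1.54 for ATG17. It was 1.26 for DER1, 2.46 for GTT1, 2.89 for PBI2, 2.20 for YET2, 2.87 for EMP46 and 1.25 for MCD4. All 13 were above 0 in the non-mutator and below 0 in the mutator by their means.

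Among genes that were low in the non-mutator, the difference was 1.19 for MFA1, 1.08 for AGA2, 1.62 for PHO11, 1.59 for PHO12 and 1.04 for PHO84, which stood lower still in the mutator. It was -1.01 for STE2, -0.77 for STE6, -1.04 for NRT1, -0.32 for LEU2 and -3.39 for FET3, which stood lower in the non-mutator. PHO11 and PHO12 are near-identical.

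Among the marker genes, the difference was 3.29 for ADE2, 2.27 for MET17, 2.51 for TRP1 and 0.91 for LYS2, all higher in the non-mutator.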

How the results depend on the processing

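All 2481 calls rest on 3 arrays of 1 line and on a spread shared between probes. With the ordinary per-probe spread 83 probes passed, with the 3 averaged mutator replicates in the fit 1457, with the 6 mutator arrays 297, at an adjusted p under 0.01 1019 and with a size of at least 0.5 359; leaving out 1 array gave 1055 to 3266. No centring, equal array scales, robust eBayes, array weights and the filters, including the probes at the shared ratio left out, kept this count within 1.5 times. The lists, in the order a-specific lower, phosphate lower, amino acid lower, ergosterol lower, endoplasmic reticulum higher and vacuole higher, had 3, 0, 3, 1, 0 and 1 calls with the ordinary per-probe spread, against 7, 19, 31, 19, 14 and 13. With the 6 mutator arrays amino acid synthesis had 8, ergosterol 4, endoplasmic reticulum 9 and vacuole 4. At an adjusted p under 0.01 amino acid synthesis had 17 and ergosterol 11, and with a size of at least 0.5 the same 4 lists had 7, 3, 9 and 4. Leaving out 1 array gave 6 to 7 for the a-specific genes, 17 to 19 for phosphate, 18 to 34 for amino acid synthesis, 10 to 19 for ergosterol, 12 to 14 for endoplasmic reticulum and 8 to 13 for vacuole. The cause of these changes was not tested, apart from the stricter thresholds, which lower counts by construction.

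Of 48 genes examined under 16 alternatives, 41 had passed, 7 of these passed under all alternatives, and 0 of the 41 changed sign. NFG1 lost its call with the averaged mutator replicates in the fit (adjusted p = 0.144) and with the 6 mutator arrays (0.292). The genes that changed sign had not passed: CAN1 was at 0.00017 with no centring, 0.0098 with array weights and -0.024 to 0.013 without 1 array, LYS5 at -0.012 with array weights and -0.0095 to 0.013 without 1 array, and URA3 at 0.0030 with array weights and -0.074 to 0.028 without 1 array. Of 784 list medians compared 31 moved by more than the SD of their array medians, at most by 0.11. The chromosome median farthest from 0 (-0.021) stayed within -0.034 and -0.016 when 1 array was left out. With no centring, which shifts all chromosomes, the one farthest from 0 was at 0.024.

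The difference between lines passed for 4390 probes, for 3467 with replicate number as a block, and for 3773 to 3952 without 1 non-mutator array. With the replicate block the difference of NFG1 turned to 0.50, and on repeat mutator arrays alone that of SST2 turned to 0.046; neither had passed. The labels share numbers only, so the block tests no pairing.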

Other observations

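Among probes without a systematic gene name, 186 of 567 tested passed, a share of the same order as in all probes. The files give these probes no gene, so none is described.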
